A study of Mus musculus with 9 samples.

Results

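The iron uptake, storage and recycling genes described here are Tfrc, Steap3, Slc11a2, Slc11a1, Slc40a1, Fth1, Ftl1, Ncoa4, Aco1 and Ireb2. They were chosen by their symbols, and each of the 10 had 1 row among the 20926 genes of a table of blood RNA sequencing values. The table held 9 libraries from male DBA/1 mice that the labels give as 7 weeks old. In the methods 7 weeks is the age at which the mice were divided into groups, and the age at blood collection is not given. The Ctrl group (3 libraries) was labelled as not irradiated. The CIA group (3 libraries) carried collagen-induced arthritis, a joint disease raised by injecting chick type II collagen in Freund's adjuvant, and was not irradiated. The CIA+THz group (3 libraries) carried the same arthritis, and its ankles were exposed to a 0.1 THz source for 30 min per day over 14 days. The methods name isoflurane anesthesia for the irradiation only, so irradiation and anesthesia cannot be told apart here. They name no injection for Ctrl, so the arthritis and the collagen and adjuvant injections cannot be told apart either. The irradiated ankle was not the tissue sequenced. The labels do not say that each library came from its own mouse, so the p-values measure the spread between libraries.

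Cells take up iron mainly as transferrin, which enters with the transferrin receptor, is freed of its iron in endosomes by a reductase and gives that iron to the cytosol through a divalent metal transporter. Surplus iron is stored in ferritin, a shell built of heavy and light chains, and leaves the cell through ferroportin. Red cell precursors draw most of the body's iron for heme, and macrophages return it by breaking down old red cells. In iron-poor cells the regulatory proteins encoded by Aco1 and Ireb2 bind a hairpin in messenger RNAs, the iron-responsive element, which blocks translation from a 5' UTR and protects the message from a 3' UTR.

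These hairpins are what several of the 10 genes share, and their letters are shown first. The searched form was CNNNNNCAGTGN followed by 5 bases that pair with the 5 bases before the loop, with G-T pairs allowed, in the sense strand of 1 transcript per gene of GENCODE M21 on GRCm38, the assembly that the labels call mm10. Matches stood in 4 of the 10 genes, and each match lay within 1 exon. The printed runs hold 30 bases, 5' to 3', with the loop in capitals. Tfrc, on the plus strand of chromosome 16, held 4 matches in its 3' UTR, at chr16:32631219-32631248, chr16:32631598-32631627, chr16:32631663-32631692 and chr16:32631710-32631739, given in that order. Fth1 held its match in the 5' UTR at chr19:9982732-9982761 on the plus strand, Ftl1 in the 5' UTR at chr7:45459778-45459807 on the minus strand and Slc40a1 in the 5' UTR at chr1:45925464-45925493 on the minus strand.
Tfrc site 1: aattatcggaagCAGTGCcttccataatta
Tfrc site 2: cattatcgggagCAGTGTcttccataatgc
Tfrc site 3: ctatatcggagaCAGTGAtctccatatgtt
Tfrc site 4: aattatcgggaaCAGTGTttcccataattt
Fth1: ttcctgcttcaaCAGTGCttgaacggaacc
Ftl1: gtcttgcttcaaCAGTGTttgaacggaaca
Slc40a1: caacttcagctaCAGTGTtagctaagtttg
Of 19583 genes with a 5' UTR in this annotation, 20 (0.102%) held the form there, and 3 of them were Fth1, Ftl1 and Slc40a1. Of 19699 genes with a 3' UTR, 107 (0.543%) held it, Tfrc among them. The form stood in coding sequence of 130 of 20341 genes (0.639%) and of none of the 10. No match was found in Steap3, Slc11a2, Slc11a1, Ncoa4, Aco1 or Ireb2, which says only that these letters were not in the transcript searched. Beyond the 10 genes, the 5' UTR matches included Alas2, which makes the first enzyme of heme synthesis in red cell precursors. A match is a description of the sequence, and the tables hold RNA levels, which do not show whether a message was translated.

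The values are FPKM, reads per length of transcript and per size of library, so levels can be compared between genes. Each library was divided by 1 factor (0.847 to 1.24) so that its typical gene matched the other libraries, and these rescaled FPKM are the levels given throughout. Fold changes were tested with limma on log2(rescaled FPKM + 0.1) over 12366 genes with a mean of at least 0.1. All 10 iron genes were above that minimum. The added 0.1 understates the change of low genes, while a single library listed at 0 can enlarge it. A gene passed the criterion in a comparison at an unadjusted p under 0.05 together with an absolute log2 fold change above 0.67, and the Benjamini-Hochberg adjusted p over all genes tested is given beside it.

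The labelled tissue is blood leukocyte, while the methods describe RNA of total blood, and both cell classes were present in the libraries. All 12 pan-leukocyte markers were in the table, with summed levels of 5231 to 6354 rescaled FPKM. Of 16 erythroid markers 15 were in the table, none at 0 in all libraries, and Alas2 alone took 11.4% to 16.7% of the summed FPKM. In RNA from mixed blood, fewer cells of a type and less RNA per cell cannot be told apart. The scale also set several directions. Relative to rescaled FPKM, the values as deposited moved all genes of the CIA+THz libraries up by 0.28 against CIA and by 0.31 against Ctrl on the log2 scale, and a scale set on the 15 erythroid genes moved all genes up by 0.64 in CIA and by 0.75 in CIA+THz against Ctrl. A scale set on the 12 leukocyte genes moved them by -0.11 in CIA against Ctrl and by 0.11 in CIA+THz against CIA.

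The 10 genes differed widely in level. The ferritin chain genes Fth1 and Ftl1 were the 6th and 8th most abundant of all 20926 genes by mean rescaled FPKM. Ncoa4 stood at rank 220, Slc40a1 at 1197, Tfrc at 2313, Slc11a1 at 2575 and Ireb2 at 2872. Steap3 (rank 4759), Aco1 (7701) and Slc11a2 (8983) were the least abundant. Among these 10, the storage genes Fth1, Ftl1 and Ncoa4 were thus far above the uptake, export and sensing genes.

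**Figure D1:**
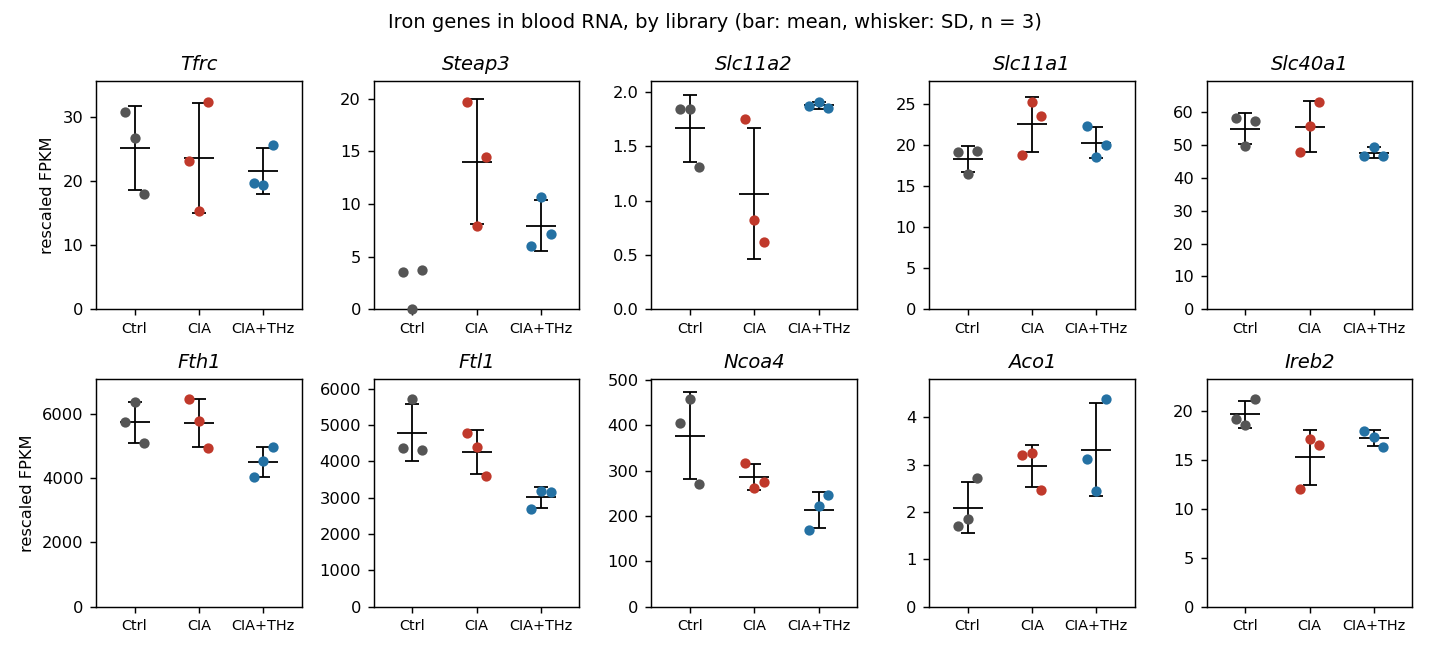
Rescaled FPKM (y axis, linear from 0, own range per gene) of the 10 iron genes in the 9 libraries, with 1 point per library, a bar at the mean and whiskers of 1 SD (n = 3); no bar is drawn for Steap3 in Ctrl, where 1 library is listed at 0. The 3 CIA+THz points of Ftl1 (2684 to 3197) lie below all other Ftl1 points, and the CIA points of Steap3 (7.90 to 19.7) lie above its Ctrl points; both orders are those on rescaled FPKM.

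The arthritis, together with the injections that raised it, was read from CIA against Ctrl. Steap3 was the 1 iron gene of 10 that passed the criterion, and it rose. Of all genes tested, 9.04% passed (4.79% upward and 4.25% downward). Steap3 was higher and Ireb2 lower in CIA without overlap between the groups, a separation that 23.5% of all genes showed in either direction. No iron gene had an adjusted p under 0.05 (0.154% of all genes did), and the smallest was 0.241. Log2 fold changes had a median of -0.06 over the 10 genes and -0.0051 over all genes, with 4 above 0 and 6 below on rescaled FPKM. On the erythroid scale all but Slc11a2 were above 0.

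The effect of irradiation on arthritic mice was read from CIA+THz against CIA. None of the 10 iron genes passed the criterion, and 4.54% of all genes did (2.94% upward and 1.6% downward). Ftl1 and Ncoa4, both of the storage route, were lower at an unadjusted p under 0.05 in limma (2 of 10 genes, against 13.2% of all genes) with changes under the fold limit. Both were lower and Slc11a2 was higher without overlap between the groups, a separation seen upward in 9.38% and downward in 10.2% of all genes (19.6% in all). No gene of the table reached an adjusted p under 0.05 in this comparison. Median log2 fold changes were -0.18 for the iron genes and 0.025 for all genes, with 3 of 10 above 0 on rescaled FPKM. On FPKM as deposited Tfrc, Slc11a1 and Slc40a1 were also above 0.

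Against Ctrl, the CIA+THz libraries carry the arthritis with its injections as well as the irradiation. Ncoa4 was the 1 iron gene of 10 that passed the criterion, and it fell, beside 7.88% of all genes (4.64% upward and 3.24% downward). Ftl1 and Ncoa4 had an unadjusted p under 0.05, as did 18.1% of all genes. The groups did not overlap for 7 of the 10 genes, of which Steap3 and Slc11a2 were higher and Fth1, Ftl1, Ncoa4, Slc40a1 and Ireb2 lower, beside 24% of all genes in either direction. On the erythroid scale the fold changes of Tfrc, Fth1, Ftl1, Slc40a1 and Ireb2 in this comparison were above 0, and that of Ncoa4 was -0.06. The smallest adjusted p was 0.146, and 0.105% of all genes were under 0.05. Medians on the log2 scale were -0.19 for the 10 genes and 0.039 for all genes. Each group enters 2 of the 3 comparisons, so these share libraries and are not independent.

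A moderated F-test in limma over the 3 groups gave an unadjusted p under 0.05 for Ncoa4 (adjusted p = 0.102), Ftl1 (adjusted p = 0.147) and Steap3 (adjusted p = 0.154). These 3 of 10 stood beside 21.3% of all genes at an unadjusted p under 0.05, and none was among the 2.53% with an adjusted p under 0.05.

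**Figure D2:**
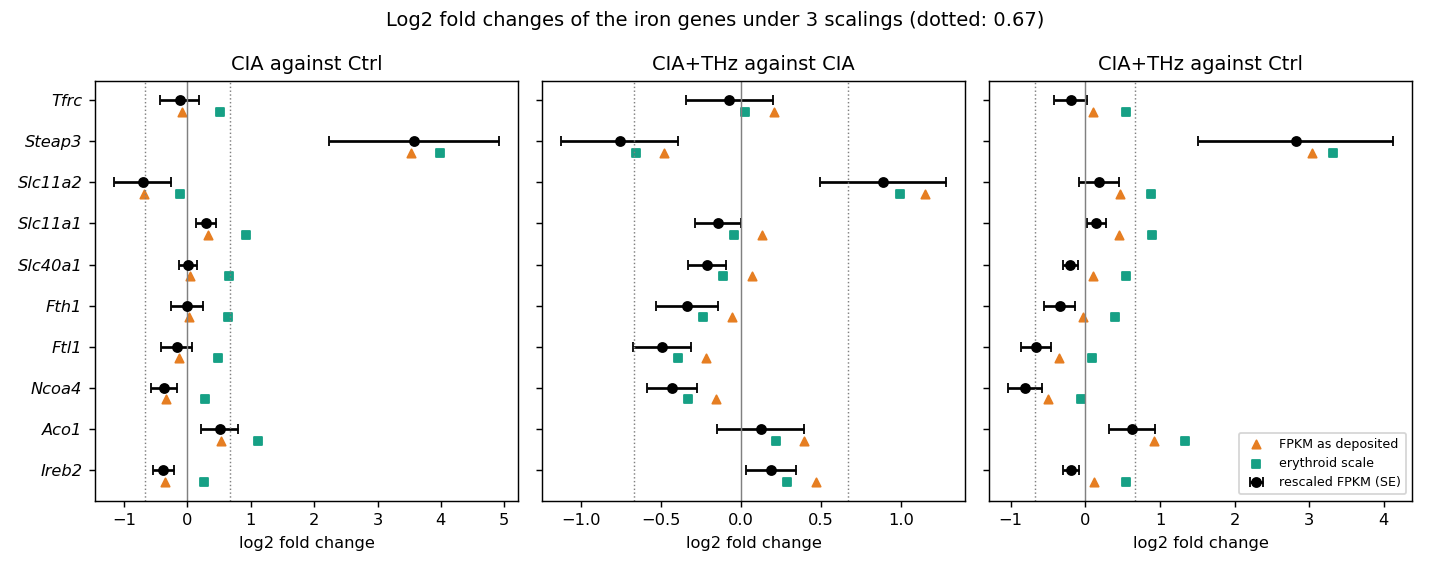
Log2 fold changes (x axis) of the 10 iron genes in the 3 comparisons: black circles with whiskers of 1 SE on rescaled FPKM, triangles on FPKM as deposited and squares on the erythroid scale, with dotted lines at 0.67 in either direction. Steap3 lies beyond 3 against Ctrl in CIA on every scale shown, while Ncoa4 in CIA+THz against Ctrl moves from -0.81 on rescaled FPKM to -0.06 on the erythroid scale.

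Tfrc encodes the transferrin receptor, the main iron entry of red cell precursors and of dividing cells, and lies at chr16:32608920-32632794 on the plus strand. Its level was 30.8, 26.7 and 18.0 rescaled FPKM in the Ctrl libraries, 23.2, 15.3 and 32.4 in CIA and 19.7, 19.4 and 25.7 in CIA+THz. The highest and the lowest library both belonged to CIA, 2.12 times apart, and all groups overlapped. The group means were 25.2 ± 6.52, 23.6 ± 8.56 and 21.6 ± 3.57 (SD, n = 3). With limma, the log2 fold change was -0.12 in CIA against Ctrl (SE 0.31, adjusted p = 0.876) and -0.07 in CIA+THz against CIA (SE 0.27, adjusted p = 0.937). The 95% interval of the second ran from -0.72 to 0.57, so with 3 libraries per group a difference within those bounds was not excluded.

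Steap3, the endosomal reductase that turns transferrin iron into the form the transporter carries, lies at chr1:120190757-120272705 on the minus strand. It stood at 3.50 and 3.69 rescaled FPKM in Ctrl 1 and Ctrl 3 and was listed at 0 in Ctrl 2, which in FPKM can be a failed estimate. The CIA libraries held 19.7, 7.90 and 14.5 rescaled FPKM, and the CIA+THz libraries 5.98, 10.7 and 7.18. Every arthritic library, irradiated or not, was above every Ctrl library, and the CIA+THz libraries lay within or below the CIA range.
With limma, Steap3 rose by a log2 fold change of 3.58 in CIA against Ctrl (SE 1.34, adjusted p = 0.241). The size rests on the library listed at 0. Without Ctrl 2 the log2 fold change was 1.84 and still passed the criterion, and with a pseudocount of 1 it was 2.36. The criterion was met without any 1 of the Ctrl libraries, and it was missed on its p without CIA 1, CIA 2 or CIA 3. Between CIA+THz and Ctrl the log2 fold change was 2.82 (SE 1.31, adjusted p = 0.311), or 1.08 without Ctrl 2, which then passed. Between CIA+THz and CIA it was -0.76 (SE 0.37, adjusted p = 0.423), and without CIA 2 it was -1.12, which passed the criterion.

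The monocyte list had the same order of groups as Steap3. The summed level of the 12 monocyte markers, all in the table and none at 0 in all libraries, was 3457 to 3820 rescaled FPKM in Ctrl, 5718 to 6354 in CIA and 3871 to 4215 in CIA+THz. With equal weight per gene, the mean log2 level was 5.93 to 6.13, 6.69 to 6.97 and 6.44 to 6.58. In CIA against Ctrl 7 of 12 passed the criterion, all higher, beside 4.79% of all genes upward. In CIA+THz against Ctrl 6 of 12 passed higher and 1 lower, beside 4.64% upward and 3.24% downward. Of 12 tissue macrophage markers, which in blood would mark cells of another site, the sums were 22.4 to 25.5, 41.0 to 60.1 and 35.1 to 46.4. With equal weight for each of 10 of these genes, CIA (mean log2 level -1.08 to -0.09) overlapped Ctrl (-1.19 to -0.56). By that measure CIA+THz had the highest group mean (-0.22, against -0.62 for CIA and -0.87 for Ctrl). Single genes were split, with 6 of 10 higher and 4 lower in CIA+THz against CIA (median 0.30, none past the criterion). Against Ctrl, CIA had 7 higher and 3 lower (median 0.53), with 1 past the criterion. Marco was at 0 in every library, and the red pulp macrophage markers Cd163 and Spic were below 1 in every library. The part of these cells in the level of Steap3 was not tested.

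Slc11a2, also called DMT1, carries iron out of the endosome and lies at chr15:100387898-100425072 on the minus strand. It was the least abundant of the 10 genes. The Ctrl libraries held 1.85, 1.84 and 1.31 rescaled FPKM, the CIA libraries 1.76, 0.823 and 0.618, and the CIA+THz libraries 1.87, 1.91 and 1.85. CIA+THz was the tightest group (1.88 ± 0.0313, SD, n = 3), just above all other libraries (1.85 at its lowest and in Ctrl 1), while CIA 2 and CIA 3 were the lowest of the 9. In limma the log2 fold change was 0.88 in CIA+THz against CIA (SE 0.40, adjusted p = 0.402). It passed the criterion on FPKM as deposited (1.15), on the leukocyte scale (0.99), with all 9 libraries in one fit and without CIA 1 (1.28). In CIA against Ctrl it was -0.71 (SE 0.45, adjusted p = 0.458), and it passed without CIA 1 at -1.10. Messages of this gene with different 3' ends are summed in 1 row and cannot be told apart.

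Slc11a1, or NRAMP1, moves iron and other metals out of the phagosome of macrophages and neutrophils, and lies at chr1:74375195-74386062 on the plus strand. Its level was 19.2, 16.5 and 19.2 rescaled FPKM in Ctrl, 18.8, 25.3 and 23.6 in CIA and 22.3, 18.5 and 20.0 in CIA+THz. CIA 2 and CIA 3 were the highest, CIA 1 lay within the Ctrl range, and the groups overlapped. Against Ctrl, CIA gave a log2 fold change of 0.29 in limma (SE 0.15, adjusted p = 0.379), and it passed the criterion only on the erythroid scale, at 0.93. Between CIA+THz and CIA it was -0.14 (SE 0.14, adjusted p = 0.699) on rescaled FPKM and 0.13 on FPKM as deposited. The neutrophil marker sums were 13108 to 21870 rescaled FPKM in Ctrl, 14857 to 19288 in CIA and 11026 to 12585 in CIA+THz, with all 12 markers present, so the CIA+THz libraries were the 3 lowest in that list. The part of neutrophils in the level of Slc11a1 was not tested.

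Slc40a1 encodes ferroportin, the iron exporter that hepcidin removes from the cell surface, and lies at chr1:45908068-45926523 on the minus strand. It was the steadiest of the 10 genes, with its highest library 1.35 times its lowest. The Ctrl libraries held 58.2, 49.7 and 57.3 rescaled FPKM, the CIA libraries 47.8, 56.0 and 63.3, and the CIA+THz libraries 46.8, 49.6 and 46.8. CIA+THz was narrow (47.7 ± 1.61, SD, n = 3) and lay just below Ctrl (55.1 ± 4.67), from 49.6 at its highest to 49.7 at the lowest Ctrl library. The log2 fold change was 0.01 in CIA against Ctrl in limma (95% interval -0.31 to 0.34, adjusted p = 0.982). From CIA to CIA+THz it was -0.21 (SE 0.12, adjusted p = 0.481), and it was above 0 on FPKM as deposited (0.064).

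Fth1, the ferritin heavy chain with the iron-oxidizing site, lies at chr19:9980598-9985098 on the plus strand. Its level was 5733, 6354 and 5100 rescaled FPKM in Ctrl (5729 ± 627, SD, n = 3), 6440, 5758 and 4937 in CIA (5712 ± 753) and 4030, 4535 and 4959 in CIA+THz (4508 ± 465). Every CIA+THz library was below every Ctrl library, and CIA+THz 3 was just above CIA 3. Means of Ctrl and CIA differed by a log2 fold change of -0.0070 in limma (95% interval -0.59 to 0.58, adjusted p = 0.996). In CIA+THz it was -0.34 against CIA (SE 0.19, adjusted p = 0.493) and -0.35 against Ctrl (SE 0.21, adjusted p = 0.421), and the latter was 0.40 on the erythroid scale.

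Ftl1, the light chain that helps form the mineral core, lies at chr7:45457944-45459884 on the minus strand. It stood at 4362, 5702 and 4303 rescaled FPKM in Ctrl (4789 ± 791, SD, n = 3), 4785, 4401 and 3607 in CIA (4265 ± 601) and 2684, 3197 and 3154 in CIA+THz (3012 ± 284). The CIA+THz libraries were the 3 lowest of the 9 without overlap with either other group. In limma the log2 fold change was -0.50 against CIA (SE 0.18, adjusted p = 0.323) and -0.66 against Ctrl (SE 0.20, adjusted p = 0.169), each short of the fold limit. Against Ctrl it was beyond the limit and passed the criterion without Ctrl 1 (-0.72), Ctrl 3 (-0.73) or CIA+THz 3 (-0.70). It was -0.35 on FPKM as deposited and 0.08 on the erythroid scale, so the order of Ftl1 between CIA+THz and Ctrl held on 3 of the 4 scales. Ferritin genes have many near-identical copies in the mouse genome, and how reads that fit several copies were counted is not given in the sources used here, so both chain levels carry that uncertainty.

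Because both chains come from the same library, their ratio does not depend on the scale. Fth1 over Ftl1 was 1.31, 1.11 and 1.19 in Ctrl, 1.35, 1.31 and 1.37 in CIA and 1.50, 1.42 and 1.57 in CIA+THz. The mean ratio was 1.20 ± 0.101, 1.34 ± 0.0305 and 1.50 ± 0.0768 (SD, n = 3), and all 3 CIA+THz libraries stood above all 6 others. In a two-sided exact permutation test of the log2 ratio, CIA+THz was 0.16 above CIA (p = 0.1) and 0.32 above Ctrl (p = 0.1), where 0.1 is the smallest p that 3 against 3 allows. CIA was 0.16 above Ctrl (exact permutation p = 0.2), with Ctrl 1 and CIA 2 overlapping. The ratio was calculated after both chain levels had been seen, and it is a ratio of messages, not of chains in the ferritin shell. Both chains together took 1.61% to 1.96% of the summed FPKM of a library.

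**Figure D3:**
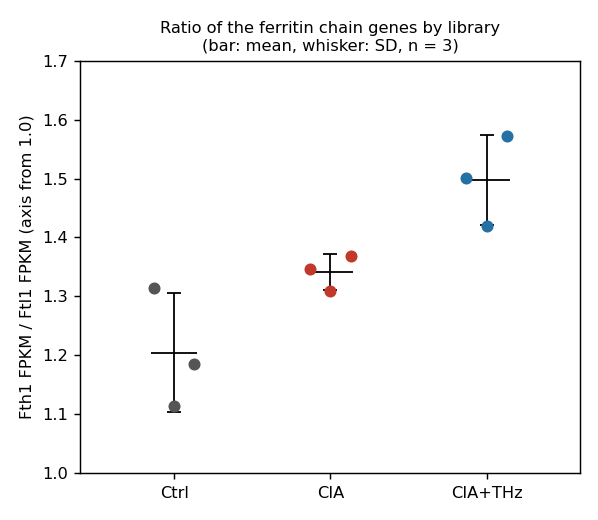
Fth1 FPKM divided by Ftl1 FPKM (y axis, shown from 1.0) in each library, with 1 point per library, a bar at the mean and whiskers of 1 SD (n = 3). The CIA+THz libraries (1.42 to 1.57) lie above the CIA (1.31 to 1.37) and Ctrl (1.11 to 1.31) libraries on any scale of the libraries.

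Ncoa4, the receptor that takes ferritin to the lysosome so that its iron can be used again, lies at chr14:32159865-32179855 on the plus strand. Its level was 404, 456 and 270 rescaled FPKM in Ctrl (377 ± 96.2, SD, n = 3), 317, 263 and 275 in CIA (285 ± 28.4) and 170, 223 and 246 in CIA+THz (213 ± 39.0). Ctrl 1 and Ctrl 2 were far above the rest, Ctrl 3 lay within the CIA range, and the CIA+THz libraries were the 3 lowest. With limma, Ncoa4 fell by a log2 fold change of 0.81 in CIA+THz against Ctrl (SE 0.22, adjusted p = 0.146). The change was under the fold limit without Ctrl 2 (-0.65) or CIA+THz 1 (-0.65), on FPKM as deposited (-0.50) and on the erythroid scale (-0.06). Against CIA the log2 fold change was -0.43 (SE 0.16, adjusted p = 0.323), and in CIA against Ctrl it was -0.37 (SE 0.21, adjusted p = 0.395).

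Red cell markers moved with the storage genes in part. Alas2 made up nearly all of the summed erythroid list (68755 of 69506 rescaled FPKM in Ctrl 3), which was 69506 to 104338 rescaled FPKM in Ctrl, 87594 to 98351 in CIA and 47715 to 65815 in CIA+THz, so the 3 CIA+THz libraries were the lowest by the sum. With each of the 15 genes given equal weight, the mean log2 level was 5.04 to 5.83 in Ctrl, 4.48 to 5.19 in CIA and 4.55 to 4.999 in CIA+THz, and by that measure CIA 2 was the lowest library and CIA and CIA+THz overlapped. From CIA to CIA+THz, where Ftl1 and Ncoa4 were lower, the erythroid list had a median of -0.04 on the log2 scale, with 5 of 15 genes higher, 10 lower and 1 past the criterion (4.54% of all genes passed). The 8 reticulocyte maturation markers, all in the table and none at 0 in all libraries, summed to 14362 to 25817, 11535 to 18817 and 9506 to 13952. From CIA to CIA+THz 7 of these 8 were lower and 1 higher, with a median of -0.30 on the log2 scale and 1 past the criterion. From Ctrl to CIA+THz, 9 of 15 erythroid and 4 of 8 reticulocyte markers passed the criterion, all lower, with medians of -0.69 and -0.74 on the log2 scale, where 3.24% of all genes passed downward. In CIA against Ctrl the erythroid median was also -0.69 and 4 of 15 passed, all lower, beside 4.25% of all genes. The log2 fold changes of Fth1 and Ftl1 there were -0.0070 and -0.16. With no library left out, neither chain passed the criterion in any comparison. Platelet marker sums, with all 9 markers present, were 4152 to 5063, 3927 to 4879 and 3286 to 3978. From CIA to CIA+THz 8 of the 9 were lower and 1 higher, with a median of -0.32 on the log2 scale. None of the 9 passed the criterion there, and 5 had an unadjusted p under 0.05 in limma (13.2% of all genes did). Lists of no single blood cell type were mostly lower in CIA+THz against CIA as well. Of 14 ubiquitous markers 13 were lower and 1 higher (median -0.16), and of 12 pan-leukocyte markers 11 were lower and 1 higher (median -0.15). Of all 12366 genes tested, 5793 were lower there, and FPKM as deposited moved all genes up by 0.28. The part of red cells and platelets in the storage gene levels was not tested.

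**Figure D4:**
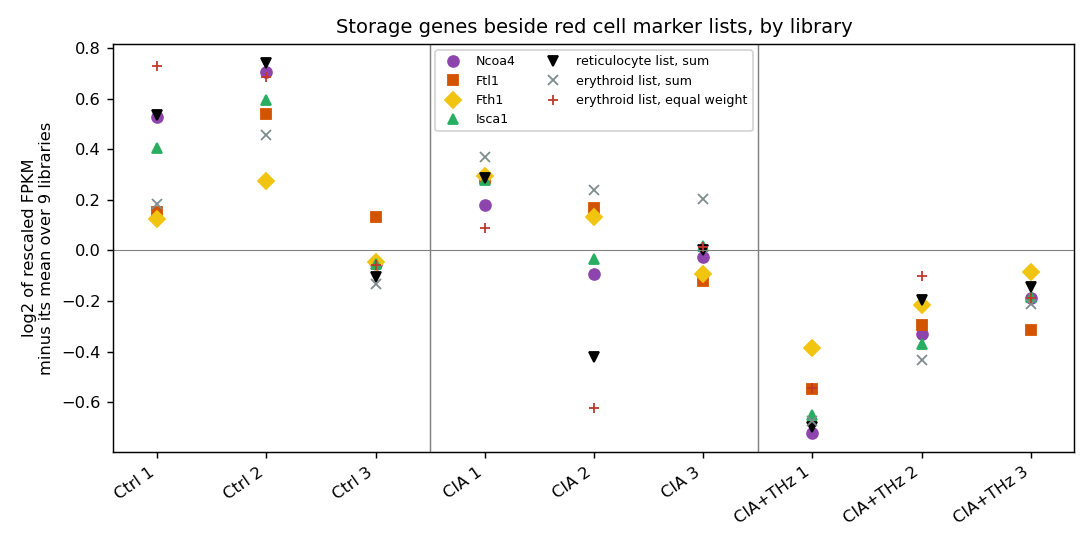
Log2 of rescaled FPKM minus its mean over the 9 libraries (y axis) for Ncoa4, Ftl1, Fth1 and Isca1 and for the summed reticulocyte list and the erythroid list as a sum and with equal weight per gene, by library (x axis). The CIA+THz libraries are below 0 for all measures shown, and CIA+THz 1 is the lowest for all but the equal-weight erythroid list, where CIA 2 is; on the erythroid scale the order of the groups differs, with Ftl1 above Ctrl in CIA+THz by 0.08.

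Aco1, which is an aconitase when it holds an iron-sulfur cluster and an RNA-binding regulator when it does not, lies at chr4:40143081-40198338 on the plus strand. It stood at 1.72, 1.85 and 2.71 rescaled FPKM in Ctrl, 3.21, 3.25 and 2.47 in CIA and 3.12, 2.44 and 4.38 in CIA+THz. Ctrl 1 and Ctrl 2 were the 2 lowest libraries, while Ctrl 3 was above the lowest library of both other groups. The log2 fold change was 0.51 in CIA against Ctrl (SE 0.30, adjusted p = 0.418 in limma) and 0.63 in CIA+THz against Ctrl (SE 0.31, adjusted p = 0.335). The second passed the criterion on FPKM as deposited (0.92), on the erythroid scale (1.33) and without Ctrl 3 (0.82).

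Ireb2, the regulator that is degraded in iron-rich cells, lies at chr9:54863789-54912530 on the plus strand. Its level was 19.2, 18.6 and 21.2 rescaled FPKM in Ctrl, 12.1, 17.2 and 16.5 in CIA and 18.0, 17.3 and 16.4 in CIA+THz. All 6 arthritic libraries lay below the 3 Ctrl libraries, and CIA 1 was the lowest. The log2 fold change was -0.38 in CIA against Ctrl (SE 0.17, adjusted p = 0.308 in limma) and -0.19 in CIA+THz against Ctrl (SE 0.11, adjusted p = 0.409), and on the erythroid scale both were above 0 (0.26 and 0.55). The 2 regulators thus stood on opposite sides of 0 against Ctrl on rescaled FPKM, without passing the criterion. Ireb2 was the more abundant message in every library.

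The 4 genes with a matching hairpin are set side by side without a test of their differences. From CIA to CIA+THz their log2 fold changes on rescaled FPKM were -0.50 for Ftl1, -0.34 for Fth1, -0.21 for Slc40a1 and -0.07 for Tfrc, and the last 2 were above 0 on FPKM as deposited (0.064 for Slc40a1 and 0.20 for Tfrc). The 95% interval of Tfrc (-0.72 to 0.57) holds the values of the other 3. In CIA against Ctrl they lay from -0.16 to 0.01.

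The genes whose levels followed each member most closely over the 9 libraries were ranked by Pearson r of log2 levels among 9748 genes with a mean of at least 1. These r share libraries, scale and blood composition and are descriptions. Ncoa4 was followed most closely by Psme3 (0.990), Isca1 (0.987) and Fam220a (0.987). For Fth1 the closest were Tmsb4x (0.990), Gng11 (0.983) and Slc25a39 (0.980), and for Ftl1 they were Ctla2a (0.981), Uqcr11 (0.978) and Rgs10 (0.974). Steap3 was closest to Cfb (0.984), Dusp22 (0.974) and Sgsh (0.973), while Ireb2 was closest to Jph3 (0.991) and Aco1 to Rnase6 (0.967). The first place was lower for Slc11a2 (Usp31, 0.963), Slc40a1 (Mob1b, 0.960), Slc11a1 (Nrros, 0.952) and Tfrc (Osbpl1a, 0.918).

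A list of 63 other genes of iron handling, set by their known roles, placed the 10 in their pathway. Of these, 60 had a row and 47 were above the minimum level. In CIA against Ctrl 3 of 47 passed the criterion (Lrp1 and Hfe higher, Glrx5 lower), in CIA+THz against CIA 1 of 47 (Trf, lower) and in CIA+THz against Ctrl 10 of 47 (3 higher, 7 lower). The split depended on the scale. On FPKM as deposited the calls were 2 higher and 1 lower in CIA against Ctrl, 2 higher and 0 lower in CIA+THz against CIA and 6 higher and 0 lower in CIA+THz against Ctrl. On the erythroid scale all calls were higher (13, 1 and 11), and on the leukocyte scale they were 1 higher and 2 lower, none, and 3 higher and 7 lower. The shares of all genes were 9.04%, 4.54% and 7.88%. None had an adjusted p under 0.05 in limma, the smallest being 0.0513, 0.210 and 0.0660. Median log2 fold changes were -0.13, -0.11 and -0.07.

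Among genes of heme recovery, Lrp1, a receptor that takes up heme bound to hemopexin among other ligands, had the largest change in CIA against Ctrl. It stood at 9.05, 7.53 and 11.7 rescaled FPKM in Ctrl, 24.5, 29.6 and 39.3 in CIA and 21.8, 20.2 and 20.9 in CIA+THz, with no overlap between any pair of groups. The log2 fold change was 1.71 in CIA against Ctrl (SE 0.23, adjusted p = 0.0513 in limma) and 1.17 in CIA+THz against Ctrl (SE 0.17, adjusted p = 0.0660), and both passed the criterion without any 1 library and on all 4 scales. Blvra, a biliverdin reductase, was 2.45, 6.35 and 5.66 in Ctrl and 7.69, 9.81 and 7.40 in CIA+THz. Its log2 fold change was 0.87 (SE 0.36, adjusted p = 0.259), or 0.45 without Ctrl 1, which did not pass.
Between CIA+THz and CIA, limma gave 5 of 13 recovery genes an unadjusted p under 0.05, all lower in CIA+THz and none past the fold limit, beside 13.2% of all genes in either direction (906 of 12366 lower). They are named here after their values were seen. Hmox1, which breaks heme open, was -0.66 (adjusted p = 0.210), Hp, which binds free hemoglobin, -0.62, Slc48a1, a heme transporter, -0.56, Lrp1 -0.54 and Blvrb, another biliverdin reductase, -0.51. These changes are on rescaled FPKM, and FPKM as deposited moved all genes up by 0.28 in this comparison. Slc48a1 also passed the criterion, lower, in CIA+THz against Ctrl. Hmox1 held 27.1, 35.7 and 33.0 rescaled FPKM in CIA and 23.0, 18.4 and 19.2 in CIA+THz, and its Ctrl libraries (26.8, 16.2 and 26.4) spanned the range of CIA+THz. White cell markers were split in the same comparison. In limma, 10 of 12 neutrophil markers (median -0.42) and 7 of 12 monocyte markers (median -0.37) were lower at an unadjusted p under 0.05. Lymphocyte lists went the other way. By the same measure 8 of 12 T cell (median 0.44), 3 of 10 B cell (0.36) and 3 of 7 NK cell markers (0.59) were higher. Of all 12366 genes, 906 were lower and 728 higher at that p. By sign alone 12 of 12 neutrophil and 10 of 12 monocyte markers were lower. Likewise 12 of 12 T cell, 9 of 10 B cell and 7 of 7 NK cell markers were higher, beside 6543 of 12366 genes. The part of white cells in the recovery genes was not tested.

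Among uptake genes, Hfe, which binds the transferrin receptor, was 5.81, 6.80 and 6.86 rescaled FPKM in Ctrl, 14.0, 7.35 and 12.0 in CIA and 11.9, 11.8 and 13.9 in CIA+THz. Every arthritic library was above every Ctrl library. It rose by a log2 fold change of 0.72 in CIA against Ctrl (SE 0.26, adjusted p = 0.229 in limma) and 0.94 in CIA+THz against Ctrl (SE 0.15, adjusted p = 0.0660). Without 1 library the first passed in 1 of 6 fits (0.53 to 0.99, passing without CIA 2), and the second in 6 of 6. Trf, which encodes transferrin itself, was 7.21, 7.13 and 7.68 in CIA and 5.32, 4.86 and 3.07 in CIA+THz, which is -0.76 on the log2 scale (SE 0.23, adjusted p = 0.269), or -0.52 without CIA+THz 3, which did not pass. It was -0.48 on FPKM as deposited. Lcn2, the siderophore-binding protein of neutrophil granules, was -0.80 in CIA+THz against Ctrl (SE 0.21, adjusted p = 0.137), or -0.62 without Ctrl 2, which did not pass.

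Of the 13 genes of mitochondrial iron and iron-sulfur cluster assembly, 4 fell in CIA+THz against Ctrl by the criterion, where 3.24% of all genes passed downward. The list as a whole was split, with 6 of 13 higher and 7 lower and a median of -0.01 on the log2 scale. Isca2, named after its value was seen, had the smallest adjusted p of the list and was higher. Its log2 fold change was 0.63 (SE 0.13, adjusted p = 0.0992 in limma), under the fold limit. Iscu, the scaffold, was -0.86 (SE 0.22, adjusted p = 0.137 in limma) and passed without any 1 library. Glrx5, a glutaredoxin of cluster transfer, was -0.78 (SE 0.21, adjusted p = 0.142), Hscb, a co-chaperone, -0.75 (SE 0.20, adjusted p = 0.140) and Isca1, an assembly protein, -0.72 (SE 0.25, adjusted p = 0.210). None of the 4 passed on FPKM as deposited or on the erythroid scale, where the changes were -0.12, -0.03, -0.0063 and 0.03. Without Ctrl 2 or without CIA+THz 1, Glrx5 (-0.62 and -0.65), Hscb (-0.66 and -0.56) and Isca1 (-0.58 and -0.59) did not pass, and Isca1 passed in 2 of 6 such fits. Isca1 was 3250 to 7704 rescaled FPKM over the 9 libraries, close to the ferritin chains. Glrx5 was also lower in CIA against Ctrl, at -0.89 (SE 0.30, adjusted p = 0.208), passing in 2 of 6 fits without 1 library (-0.68 to -1.20; without Ctrl 3 or CIA 1). The erythroid and reticulocyte list values given with the storage genes stand beside this result too, and the part of red cells in these 4 genes was not tested.

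**Figure D5:**
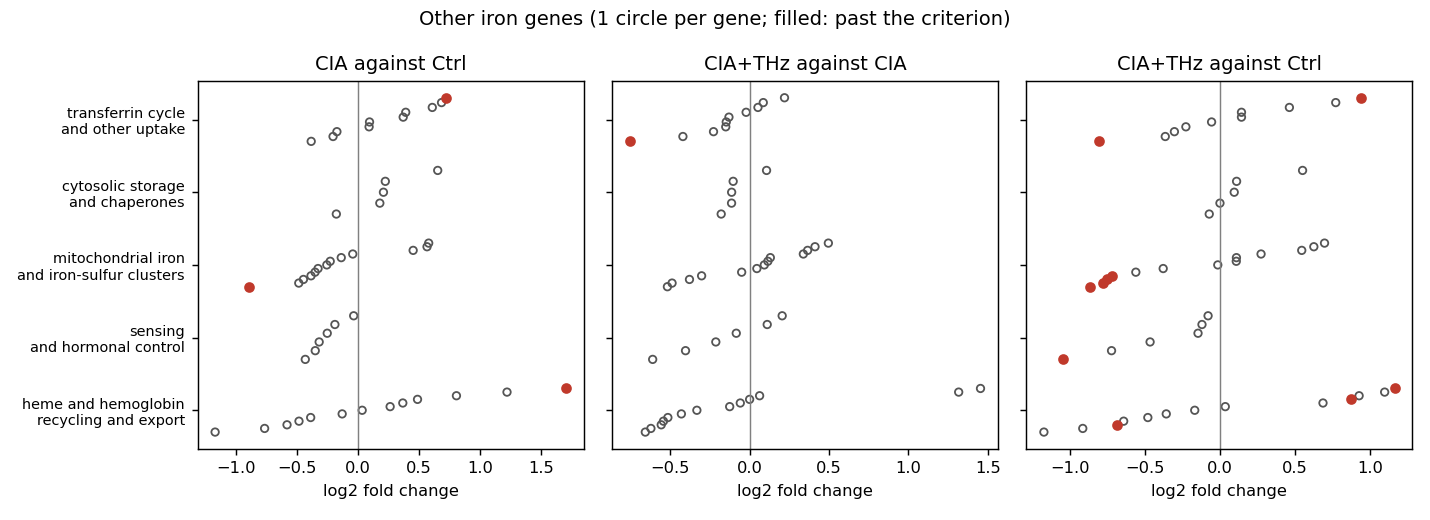
Log2 fold changes on rescaled FPKM (x axis) of the 47 other iron genes tested, with 1 circle per gene, grouped by role (y axis) and filled where the criterion was passed, in the 3 comparisons. Filled circles number 3, 1 and 10 from left to right; on FPKM as deposited they number 3, 2 and 6.

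The remaining roles held fewer calls. Of 5 tested genes of cytosolic storage and iron chaperones none passed in any comparison, and none had an unadjusted p under 0.05 in limma. Of 6 tested genes of sensing and hormonal control, Epas1, named after its value was seen, passed in CIA+THz against Ctrl at -1.04 (SE 0.39, adjusted p = 0.233), with group means of 1.30 in Ctrl and 0.557 in CIA+THz. Fbxl5, the iron sensor that marks Ireb2 protein for breakdown, was -0.47 there (SE 0.16, adjusted p = 0.196) without passing the fold limit.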

How the data were processed

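RNA of total blood was sequenced by the authors (Illumina HiSeq, paired ends). The authors deposited FPKM values for 20926 gene symbols in 9 libraries. The submitters' processing notes name bcl2fastq 2.0, HISAT2, StringTie, DESeq2 and the build mm10. Their roles, the annotation, the strand setting and any filter are not given in the sources used here. No value step that 1 read would give was found, so depth is unknown and no counting interval is given.

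The 10 genes and all lists were chosen with earlier results of these data known. FPKM were divided by 1 median-of-ratios factor per library, from 10312 genes above 0 in all 9. limma 3.58.1 in R 4.3.3 (lmFit, eBayes with trend) was run per comparison on 6 libraries and, for the F-test, on 9, with Benjamini-Hochberg adjustment over 12366 genes. It was tested on simulated data. FPKM is not a count, so no count test was run. Named genes were the 10, up to 5 higher and 5 lower other iron genes per comparison that passed the criterion with a mean of at least 1, and the closest genes by r. A fold change is the first group minus the second. Alternatives were other scales, another pseudocount, other filters, eBayes without trend, 1 fit of all libraries, a replicate block and leaving out each library. Replicate numbers are shared between groups, but same-numbered libraries did not deviate together.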

Additional observations from a re-analysis of the deposited data

How the results depend on the processing

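Counts are of genes past the criterion. For the 10 iron genes in CIA against Ctrl the count was 1, and it was 0 with no filter on low genes or with eBayes without trend, 2 on the erythroid scale (Steap3 and Slc11a1) and 0 to 1 without 1 library (Slc11a2, lower, in place of Steap3 without CIA 1). In CIA+THz against CIA it was 0, and it was 1 (Slc11a2, higher) on FPKM as deposited, on the leukocyte scale and with all 9 libraries in one fit, and 0 to 1 without 1 library (Slc11a2 without CIA 1, Steap3, lower, without CIA 2). In CIA+THz against Ctrl it was 1, and it was 2 on FPKM as deposited (Aco1 and Steap3), 4 on the erythroid scale (Steap3, Slc11a1, Slc11a2 and Aco1), 2 (Ncoa4 and Steap3) with a pseudocount of 1, with a mean of at least 1 or with all 9 libraries in one fit, and 0 to 4 without 1 library (0 without CIA+THz 1, 4 without Ctrl 3). For the other iron genes in CIA against Ctrl the count of 3 was 13 on the erythroid scale and 1 (without CIA 3) to 4 without 1 library. In CIA+THz against CIA the count of 1 was 2 on FPKM as deposited, 0 on the leukocyte scale or with a pseudocount of 1, and 0 (without CIA+THz 3) to 6 (without CIA 1) without 1 library. In CIA+THz against Ctrl the count of 10 was 6 on FPKM as deposited and 4 (without CIA+THz 1) to 15 (without Ctrl 3) without 1 library. At an adjusted p under 0.05 every one of these counts, and that of the F-test, was 0. Isca1 in CIA+THz against Ctrl changed sign on the erythroid scale (0.029). The log2 ratio of Fth1 to Ftl1 stayed above 0 in each comparison without any 1 library (0.10 to 0.22, 0.12 to 0.20 and 0.26 to 0.38). With the replicate block the members' counts were 1, 0 and 1, and the other iron genes' were 3, 1 and 8. Correlations of same-numbered libraries' deviations were -0.05 to 0.03, so the numbers do not pair the libraries. The causes of these shifts were not tested. Unknown depth limits the low genes (Slc11a2, Aco1, Steap3) most.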
